A study of Mus musculus with 6 samples.

Results

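The HOX cluster genes encode homeodomain transcription factors and lie in 4 clusters, HOXA to HOXD. Members were every probe whose gene symbol is Hoxa, Hoxb, Hoxc or Hoxd followed by a number. Each array probe is identified in the scanner files by a transcript accession, and the symbol came from matching that accession to RefSeq. The rule found 46 of the array's 41174 probes, for 36 of the 39 HOX cluster genes in RefSeq: 11 HOXA, 10 HOXB, 6 HOXC and 9 HOXD genes. Hoxc4, Hoxc6 and Hoxc11 had no matched probe and were not analysed here. The 36 genes are among 18749 genes named on the array. Of the 36 genes, 12 passed the filter on dim probes and were tested.

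HOX genes of a cluster are numbered by paralogue position from 1 to 13, and genes of the same number in different clusters are the closest relatives. In the embryo their order along the chromosome follows the order in which they are switched on and the body level at which they act, so low numbers act towards the head and high numbers towards the tail and limbs. The proteins bind DNA together with TALE homeodomain partners (PBX, MEIS and PKNOX), retinoic acid and CDX factors activate the clusters, and Polycomb and Trithorax complexes keep them silent or active. In the lung, HOXA and HOXB genes of the middle positions are active in the mesenchyme, and Hoxa5 is needed for lung development.

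Transcripts were profiled in 6 primary lines grown from lung tumours of C57BL/6J mice with floxed Rb1 and Trp53 alleles (Rb1L/L, Trp53L/L), a model of small cell lung carcinoma, on 1 Agilent single-dye array per line. Every line, in both groups, came from such mice. The labels sort the lines into 3 pairs of 1 non-SMC and 1 SMC line, with pairs 1 and 3 female and pair 2 male; the meaning of SMC, how the lines of a pair were separated, the age of the mice and the Cre that acted on the alleles are not stated in the labels. A line is named by its group and its pair, so that non-SMC 3 and SMC 3 are the lines of pair 3. Levels are given in log2 units above or below the array's 75th percentile, which is 0 on this scale. Levels of different probes are not comparable with each other. A probe is called detected where the scanner software marked it well above background, and the lowest detected signal of an array lay between -6.71 and -6.04. Differences are SMC minus non-SMC from limma with the pair in the model, tested two-sided and adjusted by Benjamini-Hochberg for the 19859 features that passed the filter, and a difference passed at an adjusted p under 0.05. With the pair in the model, the p-values measure the spread of the within-pair differences over these 3 pairs of lines. The labels do not say whether each pair comes from a mouse of its own. RNA came from whole cultures, so fewer cells of a type and less RNA per cell cannot be told apart.

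The arrays resembled each other in depth, with 64.1% to 68.5% of probes detected and no saturated spot. SMC 1, SMC 2, non-SMC 2 and non-SMC 3 shared a slide, while non-SMC 1 and SMC 3 each lay alone on one. The neuroendocrine markers used to check the tumour type were detected for 10 of 10 genes in all lines but non-SMC 1 (9 of 10), and the log2 of their summed signal was 4.94, 7.15 and 4.37 in non-SMC 1 to 3 and 8.51, 8.21 and 7.93 in SMC 1 to 3. Their largest differences were 6.16 ± 1.70 (SE, 3 pairs) for Chgb and 6.02 ± 1.93 for Syt1, and none of the 10 passed. Without pair 2, Chgb (8.44, limma adjusted p = 0.0338) and Syt1 (8.61, adjusted p = 0.0393) passed, where 523 features were higher. Both also passed without non-SMC 2 and the pair in the model (adjusted p = 0.0134 and 0.0115), where 1561 features were higher. With all lines and the pair, 31 features were higher. Of 11 fibroblast and mesenchymal markers, 10, 10 and 11 were detected in the non-SMC lines and 6, 5 and 7 in the SMC lines, with summed signals of 8.20 to 9.52 and of -0.82 to 1.37. Except for Col1a2, every fibroblast gene called lower in SMC went undetected in at least 1 SMC line. Such genes passed the filter only because they were detected in all non-SMC lines, where they were higher. The count of lower genes therefore depends on that filter. 7 of the 10 tested were lower in SMC, against 3.03% of all features. Among them Col1a2, detected in all lines, differed by -11.76 and Vim, detected in 1 SMC line, by -12.84, or -12.72 with dim signals at the lowest detected one. Col3a1 and Col1a1 were detected in no SMC line and were at least 2320-fold and at least 1530-fold lower there. These bounds set the dim group at the lowest detected signal of each array. Without pair 3 these 4 genes did not pass (limma adjusted p = 0.0619 to 0.0657), nor did any other feature (0 higher and 0 lower). Leukocyte markers were detected for 4, 4 and 7 of 7 genes in non-SMC 1 to 3. In SMC 1 to 3 they were detected for 4, 4 and 6. Their summed signals were 0.79, 1.99 and 3.71 against -3.33, -2.84 and 0.34. These sums lay close to Cd14 alone in the non-SMC lines (0.66, 1.96 and 3.54) and to Lyz2 alone in SMC 3 (0.12). Of 4 tested, 1 was lower, Cd14 (-7.71), against the same 3.03% of all features. It was detected in 2 SMC lines and entered the test through the non-SMC group in which it was higher. Cd14 did not pass without pair 1 (limma adjusted p = 0.101) or without pair 3 (0.0626), where 0 features passed. Of 5 endothelial markers 1 was detected in each line, and Pecam1, Cdh5 and Cldn5 in none; Kdr, the only one tested, had a difference of -1.79 and was detected in 1 SMC line. No epithelial, smooth muscle, or alveolar and airway marker passed, and the largest differences in those lists were -5.42 for Krt19 and 2.31 for Epcam, -9.06 for Cnn1 and -4.10 for Tagln, and 3.25 for Sftpc and 3.18 for Nkx2-1. Cnn1, detected in 1 SMC line, passed without the pair in the model (limma adjusted p = 0.0197), with median scaling (0.0286) and with the slide as a block (0.0455). Features called lower there numbered 975, 975 and 466, against 602 with all lines and the pair. With no pair in the model, Cnn1 also passed without non-SMC 2 (limma adjusted p = 0.0289), non-SMC 3 (0.0157) or SMC 3 (0.0322). In such fits Tagln passed without non-SMC 2 (limma adjusted p = 0.0127) and Kdr without SMC 2 (0.0494). Rb1 lay between -2.09 and -0.38 in the non-SMC lines and between 0.27 and 0.63 in the SMC lines, Trp53 between -0.36 and 0.14 in all 6, and neither passed (limma adjusted p = 0.113 and 0.867), although Rb1 did without non-SMC 2 and the pair in the model (2.59, adjusted p = 0.00887); whether their probes lie in the floxed exons is unknown here, so neither serves as a check of the deletion.

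The 6 lines shared a run of detected HOXB genes. Hoxb2 to Hoxb9, an unbroken run of 8 neighbouring genes, were detected in every line of both groups. Hoxb1 and Hoxb13, at the ends of the cluster, were detected in none. Among the other clusters, 10 of 11 HOXA genes were detected in at least 1 line, against 1 of 6 HOXC and 1 of 9 HOXD genes. In all, 20 of the 36 HOX genes were detected somewhere and 16 nowhere. The count per line was 13, 16 and 17 in non-SMC 1 to 3 and 11, 11 and 15 in SMC 1 to 3. Counted against the highest negative control spot instead, it was 22, 22 and 21 against 18, 19 and 20, so the spread between lines depends on how detection is called. Over single probes, 12 of the 46 HOX probes were detected on all 6 arrays and 22 on none, against 53.8% and 21.3% of all probes on the array. By the scanner's flag, the lines differed in some HOXA genes and in Hoxc10 and Hoxd12, while the set of detected HOXB genes was the same in all 6. Hoxa3, Hoxa7 and Hoxa9 were also detected in all 6 lines. The 16 genes detected in no line were Hoxa13, Hoxb1 and Hoxb13, the HOXC genes Hoxc5, Hoxc8, Hoxc9, Hoxc12 and Hoxc13, and the HOXD genes Hoxd1, Hoxd3, Hoxd4, Hoxd8, Hoxd9, Hoxd10, Hoxd11 and Hoxd13. Their probes read -8.93 to -6.87 for HOXA, -8.94 to -8.11 for HOXB, -8.67 to -6.7 for HOXC and -9.0 to -6.16 for HOXD.

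**Figure D1:**
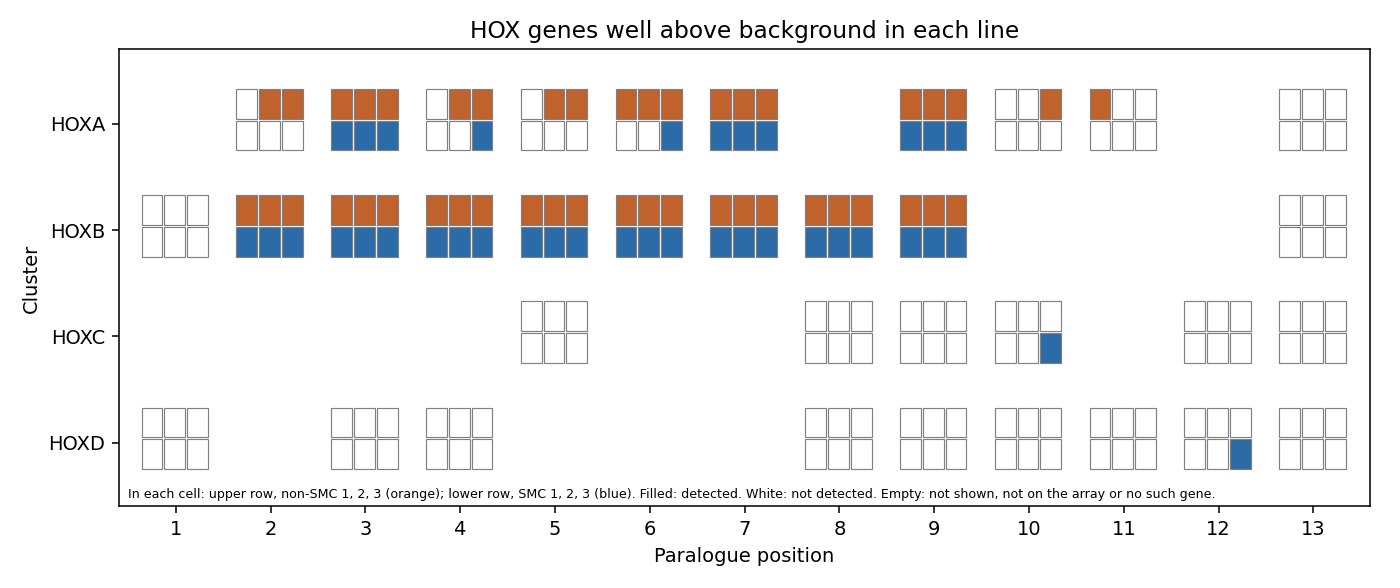
Detection of HOX genes on the array, by cluster (vertical axis) and paralogue position (horizontal axis), with 1 box per line, filled where at least 1 probe of the gene was well above background. The HOXB row is filled in all 6 lines from position 2 to 9, the HOXA row differs between lines, and the HOXC and HOXD rows hold 1 filled box each, both in SMC 3.

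The paralogue positions show the same limits. No gene of position 13 was detected in any line, for any of its 4 members, Hoxa13, Hoxb13, Hoxc13 and Hoxd13. Positions 2, 6 and 7 have 2 members each on the array, and both were detected in at least 1 line. Position 8 was represented by Hoxb8 alone, as Hoxc8 and Hoxd8 were detected nowhere, and position 9 by Hoxa9 and Hoxb9, with Hoxc9 and Hoxd9 detected nowhere. At positions 10 to 12 detection was limited to 1 line per gene: Hoxa10 in non-SMC 3 at -4.14, Hoxa11 in non-SMC 1 at -6.18, Hoxc10 in SMC 3 at -4.33 by 1 of its 2 probes, and Hoxd12 in SMC 3 at -5.70. The values of Hoxd12 and Hoxa11 lay near the lowest detected signals. The other Hoxc10 probe was detected on no array, at -8.46 in SMC 3.

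Upstream sequences are shown for genes that stand for these states: Hoxb4 and Hoxb8 from the run detected in every line, Hoxb1 from the same cluster but detected in none, Hoxa5 and Hoxa2 detected in non-SMC 2 and non-SMC 3 alone, and Hoxd4, the paralogue of Hoxb4, detected in none. Each is the 250 bases before the gene's start in RefSeq (GRCm38.p6), in the gene's own direction; a promoter was in the table for 21 of the 36 genes. Capitals mark matches, on either strand, to 4 motifs: TGATNNAT (bound by PBX with HOX), TTTATG (CDX), AGGTCA (the core site of retinoic acid receptors) and TATAAA (the TATA box). No matches overlap in these 6 windows.
Hoxb4: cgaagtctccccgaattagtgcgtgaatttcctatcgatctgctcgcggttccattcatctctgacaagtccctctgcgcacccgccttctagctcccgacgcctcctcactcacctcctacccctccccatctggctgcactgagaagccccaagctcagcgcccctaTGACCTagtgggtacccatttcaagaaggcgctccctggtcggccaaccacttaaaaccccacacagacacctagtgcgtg
Hoxb8: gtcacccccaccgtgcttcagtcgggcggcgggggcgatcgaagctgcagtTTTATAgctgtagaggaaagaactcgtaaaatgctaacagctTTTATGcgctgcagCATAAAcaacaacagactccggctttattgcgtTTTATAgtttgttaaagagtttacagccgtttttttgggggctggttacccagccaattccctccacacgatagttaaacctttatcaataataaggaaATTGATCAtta
Hoxb1: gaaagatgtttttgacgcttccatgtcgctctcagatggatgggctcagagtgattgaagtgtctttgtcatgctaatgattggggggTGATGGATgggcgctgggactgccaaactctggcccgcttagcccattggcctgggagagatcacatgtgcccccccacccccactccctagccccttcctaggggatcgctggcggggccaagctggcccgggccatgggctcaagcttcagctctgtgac
Hoxa5: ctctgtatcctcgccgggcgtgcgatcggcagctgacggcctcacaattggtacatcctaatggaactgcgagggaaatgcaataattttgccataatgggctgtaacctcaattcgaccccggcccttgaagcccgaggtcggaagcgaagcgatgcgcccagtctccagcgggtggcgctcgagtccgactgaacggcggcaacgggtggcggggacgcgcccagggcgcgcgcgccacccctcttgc
Hoxa2: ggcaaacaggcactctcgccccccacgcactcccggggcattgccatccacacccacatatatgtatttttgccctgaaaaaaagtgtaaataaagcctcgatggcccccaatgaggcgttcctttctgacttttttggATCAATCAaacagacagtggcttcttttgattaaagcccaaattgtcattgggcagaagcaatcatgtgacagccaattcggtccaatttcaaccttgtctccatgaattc
Hoxd4: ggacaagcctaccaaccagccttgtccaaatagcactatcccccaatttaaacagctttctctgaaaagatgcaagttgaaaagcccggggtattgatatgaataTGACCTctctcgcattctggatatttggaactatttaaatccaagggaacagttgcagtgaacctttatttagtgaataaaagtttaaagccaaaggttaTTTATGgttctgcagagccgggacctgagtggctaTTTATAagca

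These windows lie at chr11:96318017-96318266, chr11:96281655-96281904 and chr11:96365508-96365757 (plus strand), chr6:52204588-52204837 and chr6:52164832-52165081 (minus strand) and chr2:74721728-74721977 (plus strand). The Hoxb8 window holds 2 CDX, 2 TATA box and 1 PBX-HOX match, the Hoxb4 window 1 retinoic acid receptor site, and the Hoxb1 and Hoxa2 windows 1 PBX-HOX match each. Hoxd4, with no detected signal, has 1 CDX match, 1 receptor site and 1 TATA box, and Hoxa5 has none of the 4 motifs. Over all 32851 promoters of the RefSeq table, 7.68% hold a PBX-HOX match, 10.8% a CDX match, 14% a receptor site and 12.4% a TATA box; over the 21 HOX genes with a promoter the counts are 4, 5, 5 and 4. GC content ranged from 40.4% (Hoxd4) to 63.6% (Hoxa5) in the windows shown, and they hold 14 (Hoxb4), 12 (Hoxb8), 7 (Hoxb1), 28 (Hoxa5), 6 (Hoxa2) and 3 (Hoxd4) CpG dinucleotides, against a median of 6 for all promoters. Matches describe these letters only.

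Within the shared HOXB run, 1 line stood apart in level. For each of the 8 genes the lowest signal was that of non-SMC 3, which lay 1.22 to 5.00 log2 units (2.33- to 31.9-fold) below the lowest of the other 5 lines. Non-SMC 3 lay below all other lines in 21.9% of the features tested, and by more than 2 log2 units in 0.64%, against 7 of these 8 genes by that size. The line and the size were chosen after the values were seen. All 8 genes remained detected in non-SMC 3 by their brightest probe.

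Hoxb2 was 1.32, 1.69 and -3.67 in non-SMC 1 to 3 and 1.93, 2.22 and 2.80 in SMC 1 to 3. Hoxb3 was -0.28, -0.91 and -4.67 in the non-SMC and 0.07, 0.43 and 1.08 in the SMC lines. In embryos, both genes act in the hindbrain and its neural crest. Their groups did not overlap, with every SMC line above every non-SMC line, but in pairs 1 and 2 the partners differed by 0.35 to 1.34, far less than in pair 3. The second Hoxb3 probe gave -2.32, -1.09 and -6.30 against -0.89, -0.78 and 0.67, and it was not detected in non-SMC 3. By this probe SMC 3 lay at least 6.71 log2 units (105-fold) above its partner. By the brightest probe, detected in both lines, the difference was smaller, at 5.75.

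Hoxb4, known for expanding blood stem cells, was -1.04, -0.91 and -5.12 in non-SMC 1 to 3 and -0.67, -0.09 and 1.17 in SMC 1 to 3. Hoxb5, which acts in the lung mesenchyme and in the gut's nervous system, was 0.47, 2.36 and -3.10 against 2.48, 2.74 and 4.2. Both sets of lines again did not overlap. For Hoxb5, non-SMC 1 also lay well below its partner, by 2.01, whereas pair 2 differed by 0.39.

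Hoxb6 was 2.71, 3.25 and -0.55 in the non-SMC and 4.14, 4.13 and 4.95 in the SMC lines. Hoxb7 was 2.13, 1.77 and -1.23 against 3.74, 3.03 and 2.59. For both genes the groups did not overlap and pairs 1 and 2 differed by 0.88 to 1.61. Hoxb8, a regulator of myeloid progenitors, was 0.43, 0.49 and -3.76 against 1.58, 1.26 and 0.28, and its groups overlapped because SMC 3 lay below non-SMC 1 and non-SMC 2. Its second probe gave -4.31, -3.87 and -8.16 against -2.49, -2.85 and -4.38, was not detected in non-SMC 3, and put SMC 3 at least 3.14-fold above that line. Hoxb9, which marks the thoracic level of the embryo, was 2.42, 2.91 and -0.62 against 2.98, 3.35 and 0.60, and both lines of pair 3 lay below the other 4. Its second probe showed the same split, at -1.23 and 0.13 in pair 3 and at 1.76 to 2.96 in the other lines.

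**Figure D2:**
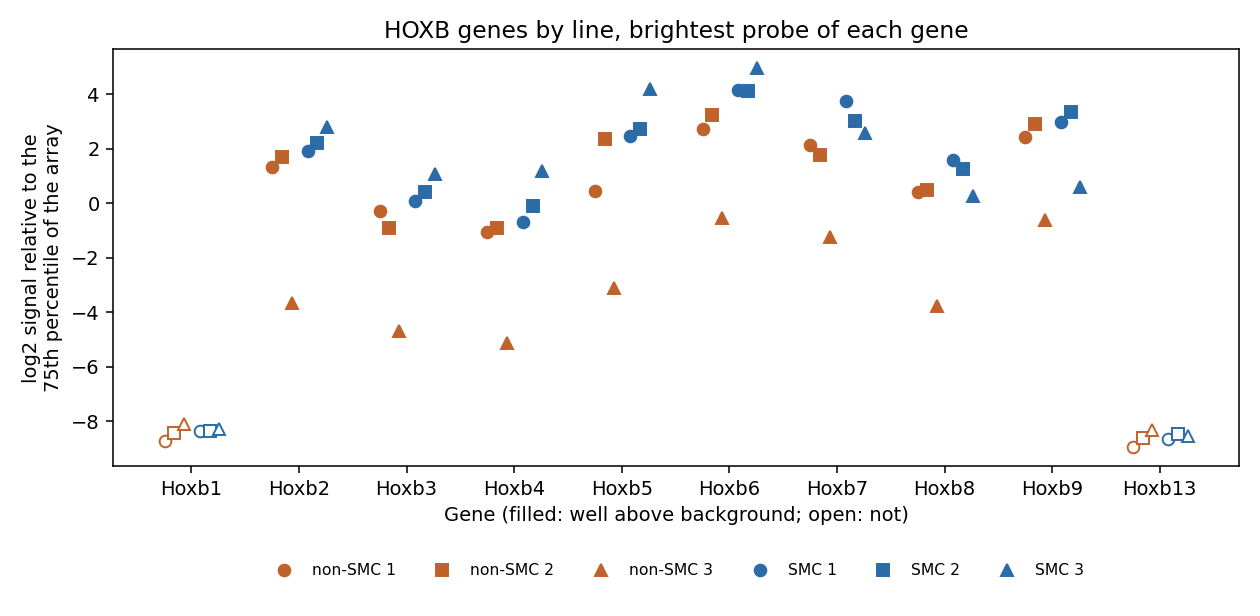
Log2 signal of the 10 HOXB genes in each line (brightest probe; filled markers are well above background; orange non-SMC, blue SMC, 1 marker shape per pair). From Hoxb2 to Hoxb9 non-SMC 3 (orange triangle) is the lowest line, at -5.12 to -0.55, while Hoxb1 and Hoxb13 are detected in none.

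Across the run, SMC 3 moved from the top to the bottom of its group. It was above both other SMC lines for Hoxb2, Hoxb3, Hoxb4, Hoxb5 and Hoxb6, by 0.72 to 1.59 relative to their mean, and below both for Hoxb7, Hoxb8 and Hoxb9, by -0.79, -1.14 and -2.57. SMC 1 and SMC 2 differed from each other by -0.58 to 0.71 over the same genes. SMC 3 was alone on its slide, and whether the slide plays a part was not tested. Non-SMC 3 lay on the slide shared with SMC 1, SMC 2 and non-SMC 2. It was also the line with the most leukocyte markers detected, 7 of 7. Its fibroblast sum was 9.13 (9.52 and 8.20 in non-SMC 1 and non-SMC 2). Its neuroendocrine sum was 4.37 (4.94 and 7.15 in non-SMC 1 and non-SMC 2). The part of these markers in the HOXB levels was not tested.

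The paired design asks whether HOX genes separate the 2 lines of a pair. All 8 HOXB genes of the run were higher in the SMC line of each of the 3 pairs, but none passed the test. The share of all features higher in all 3 pairs is not given here. The 8 genes are neighbours in 1 cluster, so they do not count as 8 separate results. Differences were 3.23 ± 1.49 (SE, 3 pairs; 9.41-fold) for Hoxb5, 2.61 ± 1.06 for Hoxb6, 2.54 ± 1.41 for Hoxb2, 2.49 ± 1.36 for Hoxb4, 2.48 ± 1.20 for Hoxb3, 2.23 ± 0.63 for Hoxb7, 1.98 ± 0.78 for Hoxb8 and 0.74 ± 0.32 for Hoxb9. Their median was 2.49, against 0.18 over all features tested, of which 58.4% were positive. The smallest adjusted p was that of Hoxb7 (limma, 0.139), and the others ran from 0.204 to 0.317. Groups did not overlap, with SMC higher, for 6 of these 8 genes and for 22.8% of all features.

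Over the 12 HOX genes tested, limma called 0 higher and 0 lower in SMC, against 0.156% of all features higher and 3.03% lower. At an unadjusted limma threshold of 0.05, 1 of the 12 passed, Hoxb7, higher in SMC, where 15% of all features were higher and 11.8% lower. Pair 3 carried most of the size of the HOXB differences: it gave 6.47, 5.75, 6.29, 7.30, 5.50, 3.82, 4.04 and 1.22 for Hoxb2 to Hoxb9, whereas pair 1 gave 0.35 to 2.01 and pair 2 gave 0.39 to 1.34. Without pair 3 the median of the 8 genes was 0.90 and the smallest adjusted p 0.366. In that fit 0 of all features were called higher and 0 lower, so not passing there says nothing particular to HOX genes. Without non-SMC 3 alone, and with no pair in the model, the median was 1.12, 0 HOX genes were called (0.0856% of all features higher, 2.18% lower; smallest HOXB adjusted p 0.189), and Hoxb9 turned to -0.36 (adjusted p = 0.851). Without pair 2 the median was 3.19 and again 0 were called, against 2.63% of all features higher. Within pair 3 the difference was smallest for Hoxb9, where both lines of the pair were low.

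**Figure D3:**
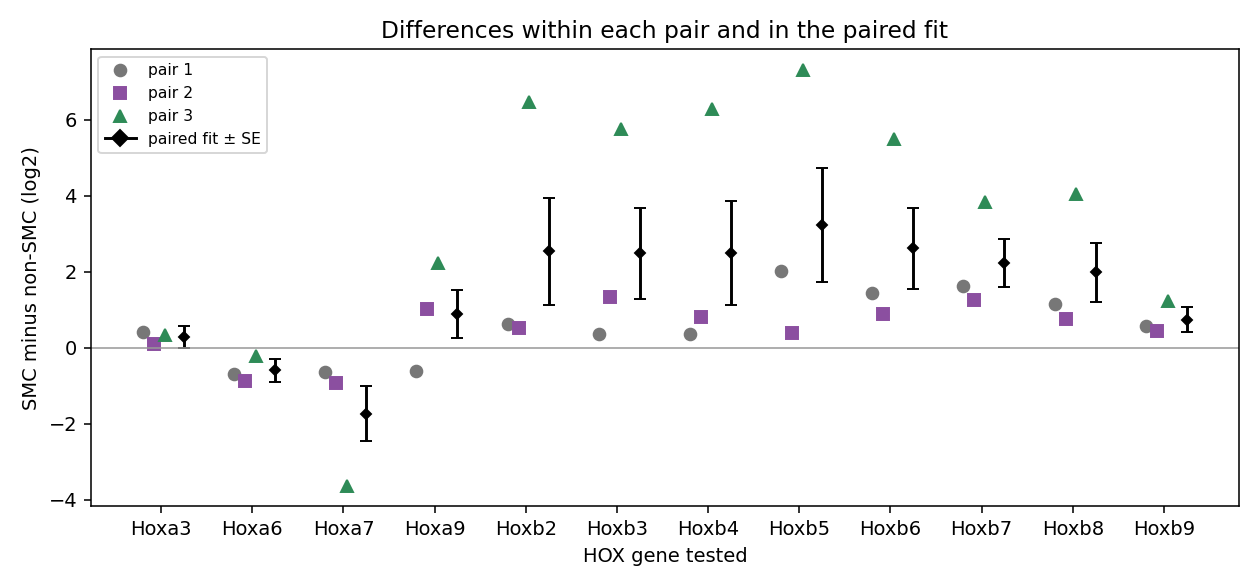
SMC minus non-SMC difference (log2) of the 12 tested HOX genes within each pair (coloured markers) and in the paired fit (black diamonds, with standard errors). For Hoxb2 to Hoxb8 pair 3 lies at 3.82 to 7.30, above pairs 1 and 2, which lie between 0.35 and 2.01.

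Among the HOXA genes of positions 2 to 5 another pattern appeared. Hoxa2 and Hoxa5 were detected in non-SMC 2 and non-SMC 3 and in no other line, and so was 1 of the 2 Hoxa3 probes. Of all probes on the array, 0.658% had this pattern of detection, which was chosen after the values were seen. The pattern does not follow the group label, since non-SMC 1 had no signal above background for any of them, and it does not follow the HOXB levels, since non-SMC 2 lay with the other lines there. The summed epithelial markers were 0.45, 8.60 and 8.75 in non-SMC 1 to 3 and 7.42, 8.40 and 1.81 in SMC 1 to 3, those of smooth muscle 5.44, 6.46 and 4.85 against 3.64, 3.29 and 3.01, and those of alveolar and airway cells -2.40, 2.52 and 1.64 against 4.29, 3.71 and 3.63. In the SMC lines the smooth muscle sums lay close to the brightest Acta2 probe alone (3.61, 3.23 and 2.93). That probe differed by -1.29 between the groups, and the other Acta2 probes by -8.48 and -10.76, so the Acta2 level is uncertain. The part of these 3 marker lists in the HOXA pattern was not tested.

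Hoxa2, a selector of the hindbrain and of the second pharyngeal arch, was -8.83, -4.69 and -4.00 in non-SMC 1 to 3 and -8.56, -8.51 and -8.44 in SMC 1 to 3, at least 2.83-fold and 4.94-fold higher in non-SMC 2 and non-SMC 3 than in their partners. Such bounds set the detected line against the lowest detected signal on its partner's array, as the partner's probe was not well above background. Hoxa5, the lung regulator, was -8.76, -4.51 and -2.76 against -8.51, -8.30 and -8.36, with bounds of 3.21-fold and 11.7-fold. In both genes the detected lines were non-SMC 2 and non-SMC 3, and the other 4 lines lay between -8.83 and -8.30.

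Hoxa4 was -7.67, -2.57 and -2.11 in non-SMC 1 to 3 and -8.45, -8.37 and -5.80 in SMC 1 to 3. It was thus detected in the same non-SMC lines and, at a lower signal, in SMC 3, with the non-SMC line of pair 2 at least 12.4-fold above its partner. The second Hoxa4 probe was detected on no array. The Hoxa3 probes disagreed. The brightest was detected everywhere and nearly flat, at -2.86, -2.81 and -2.96 in the non-SMC and -2.44, -2.71 and -2.62 in the SMC lines, while the second followed Hoxa2, at -8.23, -4.55 and -4.17 against -7.98, -7.99 and -8.04. Which Hoxa3 transcripts each probe reads was not examined, so the level of Hoxa3 is uncertain.

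The remaining HOXA genes differed from line to line. Hoxa6 was -5.36, -5.15 and -5.25 in the non-SMC and -6.05, -6.03 and -5.48 in the SMC lines, detected in all but SMC 1 and SMC 2, and entered the test through the non-SMC group in which it was higher. Hoxa7 was -4.31, -3.90 and -1.05 against -4.95, -4.84 and -4.68, so that its highest signal was in non-SMC 3, the line with the lowest HOXB signals. Hoxa9, a driver of leukaemia, was -2.87, -4.03 and -5.36 against -3.48, -3.0 and -3.12, with its lowest signal in the same line. Hoxa10, a regulator of the uterus and of blood cells, was at -4.14 in non-SMC 3, at least 4.51-fold above its partner, and between -8.39 and -8.03 in the other 5 lines. Hoxa13, which acts at the end of the limb and gut, was detected nowhere by either probe.

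**Figure D4:**
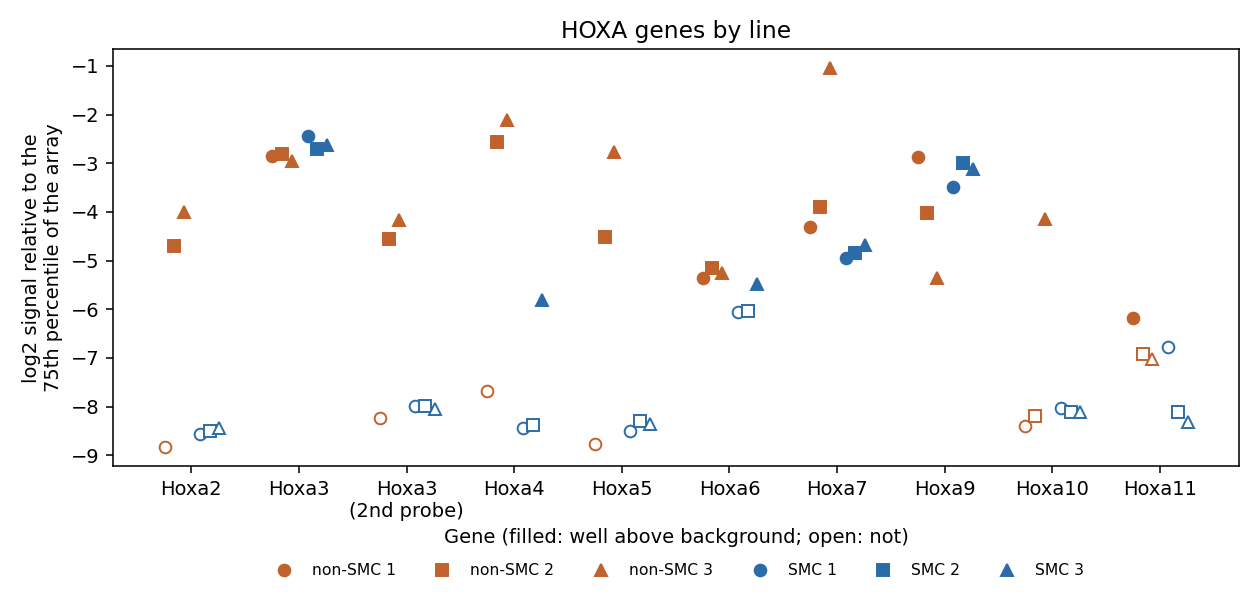
Log2 signal of HOXA genes in each line, with both Hoxa3 probes (filled markers are well above background; orange non-SMC, blue SMC, 1 marker shape per pair). Hoxa2, the second Hoxa3 probe and Hoxa5 are filled for non-SMC 2 and non-SMC 3 alone, and Hoxa7 peaks at -1.05 in non-SMC 3.

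Of the HOXA genes, 4 were tested, and none passed. Hoxa7 differed by -1.74 ± 0.72 (limma adjusted p = 0.221), Hoxa6 by -0.60 ± 0.31 (adjusted p = 0.287), Hoxa9 by 0.89 ± 0.64 (adjusted p = 0.422) and Hoxa3, by its flat probe, by 0.28 ± 0.28 (adjusted p = 0.559). Groups did not overlap for Hoxa6 and Hoxa7, with SMC lower, as in 15.4% of all features, nor for Hoxa3, with SMC higher. Hoxa2, Hoxa4 and Hoxa5 were not detected in all lines of either group and therefore were not tested. With genes detected on at least 1 array admitted, limma called 0 of 20 HOX genes, against 0.0243% of features higher and 1.45% lower; Hoxa4 differed by -3.42 ± 1.08 (adjusted p = 0.209), Hoxa5 by -3.04 ± 1.27 (0.272) and Hoxa2 by -2.66 ± 1.10 (0.270).

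Partners and regulators of the HOX proteins were measured as lists. All 9 TALE cofactor genes were detected in all 6 lines, except that 8 were in SMC 1. None of the 9 passed, and their median difference was 0.89, against 0.18 over all features. The largest were 3.49 ± 0.82 for Pknox2 (limma adjusted p = 0.117) and 2.39 ± 0.65 for Pbx4 (adjusted p = 0.134). Pknox2 was -5.68, -3.30 and -5.57 in non-SMC 1 to 3 and -1.09, -2.0 and -0.99 in SMC 1 to 3, with no overlap, and passed without the pair in the model (adjusted p = 0.0478) or without pair 2 (adjusted p = 0.0340). It passed, like Pbx4, also without non-SMC 2 and the pair (limma adjusted p = 0.00621, and 0.0305 for Pbx4). Groups did not overlap, with SMC higher, for 22.8% of all features. Features called higher numbered 31 with all lines and the pair. They numbered 277 without the pair, 523 without pair 2 and 1561 without non-SMC 2 and the pair.

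Chromatin regulators of the clusters were present in every line. All 10 Trithorax group genes on the array and all 28 Polycomb group genes were detected on all 6 arrays. None of either list passed, and the median differences were 0.50 and 0.49. In the Trithorax list the largest were 1.20 ± 0.40 for Psip1 (limma adjusted p = 0.171), which tethers complexes to chromatin, and 0.68 ± 0.35 for Kdm6a (adjusted p = 0.291), a histone demethylase that removes the Polycomb mark. In the Polycomb list they were 1.92 ± 0.42 for Jarid2 (adjusted p = 0.110), an accessory subunit of the methyltransferase complex, and 1.79 ± 0.38 for Cbx2 (adjusted p = 0.109), a reader of its mark. Jarid2 was 0.04, 1.72 and 0.33 in the non-SMC and 2.33, 2.75 and 2.79 in the SMC lines, and Cbx2 was 0.25, 1.28 and -0.31 against 2.28, 2.32 and 2.0. In both genes all SMC lines lay above all non-SMC lines, as in 22.8% of all features. Both passed without non-SMC 2 and without the pair (limma adjusted p = 0.0120 and 0.0171), where 1561 of 19859 features were higher.

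In the retinoic acid list 1 of 15 tested genes was lower in SMC, 0 were higher, and the median difference was -0.39, where 3.03% of all features were lower and 0.156% higher. Cyp26b1, an enzyme that degrades retinoic acid, was 0.14, 0.17 and 0.78 in non-SMC 1 to 3 and -4.53, -6.57 and -8.13 in SMC 1 to 3. Its difference was -6.77 ± 0.90 (limma adjusted p = 0.0497), or -6.04 with dim signals at the lowest detected one. It was detected in 1 of 3 SMC lines and entered the test through the non-SMC group in which it was higher. Cyp26a1, of the same family and chosen after its values were seen, went the other way and did not pass. Detected in all lines, it differed by 1.81 ± 0.74 (limma adjusted p = 0.216). Rarg, a retinoic acid receptor chosen after its values were seen and detected in 1 SMC line, was -0.55, -1.97 and -1.52 against -8.54, -7.86 and -5.26. It did not pass (limma adjusted p = 0.0641). Among the alternatives, Rarg passed without the pair (limma adjusted p = 0.0219), with median scaling (0.0265), with the slide as a block (0.0318) and on the shared slide alone (0.0133). Features called lower there numbered 975, 975, 466 and 612, against 602 with all lines and the pair. Among 8 other regulators tested, 1 was lower, 0 were higher (the same 3.03% and 0.156% of all features), and the median was 0.13. Egr2, the hindbrain factor that activates Hoxa2 and Hoxb2, was -0.58, 0.33 and 1.76 in the non-SMC and -3.72, -4.87 and -2.98 in the SMC lines, a difference of -4.36 ± 0.52 (adjusted p = 0.0395). Fibroblast marker signal was lower in the same SMC lines (8.20 to 9.52 against -0.82 to 1.37), and its part in these differences was not tested. Cdx2, a caudal factor that activates HOX genes in the trunk, also chosen after its values were seen, was -8.50, -0.96 and 0.30 in non-SMC 1 to 3 and 2.25, 3.31 and -4.80 in SMC 1 to 3. Neither group was uniform for Cdx2, it was detected in all lines but non-SMC 1, and its difference of 3.31 ± 3.24 turned to -0.42 without pair 1. The calls of Cyp26b1 and Egr2 depended on the processing and on which lines were included. With all lines kept, Cyp26b1 did not pass under quantile normalization (limma adjusted p = 0.0551), with no filter (0.0792) or with genes detected on at least 1 array (0.0798), and Egr2 not with no filter (0.0651), with genes detected on at least 1 array (0.0676) or with the slide as a block (0.0612). On the shared slide alone they gave 0.0582 and 0.0573. Cyp26b1 did not pass without pair 1, 2 or 3 (adjusted p = 0.0715, 0.0839 and 0.115), nor, without the pair in the model, without non-SMC 3 (0.0659) or SMC 2 (0.0517). Egr2 did not pass without pair 1, 2 or 3 (0.0564, 0.0679 and 0.178), nor, without the pair in the model, without non-SMC 3 (0.0815), SMC 1 (0.0958), SMC 2 (0.0793) or SMC 3 (0.0505). Without pair 3, 0 of all features were called higher and 0 lower, so not passing there is not particular to these genes.

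**Figure D5:**
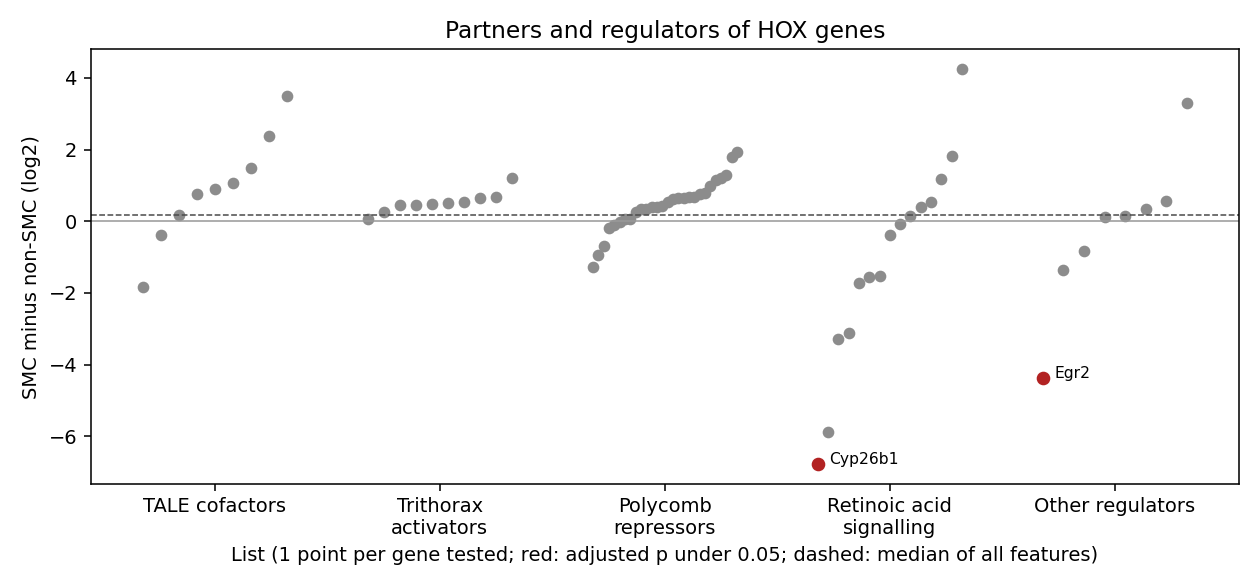
SMC minus non-SMC difference (log2) of each tested gene in 5 lists of HOX partners and regulators, ordered by size within a list, with the median of all features (0.18) as a dashed line. Cyp26b1 (-6.77) and Egr2 (-4.36) are the only points past an adjusted p of 0.05.

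Genes that border the clusters were compared with the cluster genes beside them. None of the 8 tested neighbours passed, and their median difference was -0.42. Skap2, an adaptor gene beside the HOXA cluster, was 2.34, 1.90 and 2.67 in non-SMC 1 to 3 and -2.60, -0.77 and 0.74 in SMC 1 to 3 (difference -3.18 ± 0.69, limma adjusted p = 0.111). All non-SMC lines were above all SMC lines, as in 15.4% of all features. Without SMC 3 and the pair the difference of Skap2 was -3.99 (limma adjusted p = 0.0443). Skap1, an adaptor gene beside the HOXB cluster, was -2.38, 2.44 and -1.73 against 0.89, 3.67 and -2.24 (difference 1.33 ± 0.81, adjusted p = 0.356), and was not lowest in non-SMC 3; without SMC 2 and the pair its difference was -0.12. Evx1, beyond Hoxa13, and the antisense transcript Hoxd3os1 were detected nowhere. Of 4 tested ParaHox and related homeobox genes none passed (median -0.37); Meox1, detected in no SMC line and tested through the non-SMC group in which it was higher, was at least 2.2-fold lower (adjusted p = 0.113), and Gsx1 differed by 0.80 ± 0.36 (adjusted p = 0.250). Meox1 passed with the mean of its probes (limma adjusted p = 0.0496) and without non-SMC 2 and the pair (adjusted p = 0.0266). Features called lower numbered 1147 without non-SMC 2 and the pair, against 602 with all lines and the pair.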

How the data were processed

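Members, lists and comparisons were chosen with earlier results of these data known. Of the 36 genes, 1 is not reported here, although the totals count it. Per the file headers, spot signals come from Feature Extraction 10.7.3.1 (10.7 per the submitters' processing notes), with an annotation of build mm9. The deposited intensity used is the processed signal, background-subtracted within the array per the file headers and not normalized between arrays. The deposited median spot and local background intensity entered the normexp alternative only (offset 50), in place of the mean signal planned. The authors' deposited series table holds log2 values with equal quantiles in all columns (medians 5.06), in the direction and scale of the arrays (correlation at least 0.996 with its own array, at most 0.960 with another).

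Control spots (1639) and outlier spots were left out, spots of a probe were averaged as log2, and each array's 75th percentile was subtracted. Probes detected on all arrays of at least 1 group were kept. A gene was represented by its brightest kept probe. Transcript accessions, without versions, gave 27479 of 41174 probes a RefSeq symbol (GRCm38.p6), and the other 13695 stayed unnamed. Limma 3.58.1 (R 4.3.3) fitted pair and group, with 2 residual and 2.07 prior degrees of freedom, and the code was tested on simulated data. Pairs come from the labels; the 2 lines of a pair deviated from their groups with correlations of -0.01 (pair 1), 0.14 (pair 2) and 0.00 (pair 3). With 3 pairs, the number of arrays limits the precision. The rule for names was every HOX gene (except that one), up to 4 genes past the threshold per other list or else the 2 with the largest difference, and Rb1 and Trp53. Alternatives were quantile normalization, median scaling, normexp, the deposited values, 3 other filters, 2 other treatments of probes, the slide as a block or the shared slide alone, no pair, and leaving out each pair or line; detection was also called on the brightest probe alone or against negative control spots.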

Additional observations from a re-analysis of the deposited data

How the results depend on the processing

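No HOX gene passed under any of the 21 alternatives it was tested in (12 genes in most, 11 with detection on all 6 arrays required, where Hoxa6 drops out), so the limma counts were 0 higher and 0 lower. Without the replicate block (the pair) the HOXB median was 2.49 and the smallest adjusted p 0.154, and on the shared slide alone 3.01 and 0.227. Of the values of these genes under the alternatives, 250 kept their sign and 1 turned, Hoxb9 without non-SMC 3 (-0.36). Among the other named genes, signs turned for Skap1 without SMC 2 (-0.12), Epcam without pair 1 (-1.40) or non-SMC 1 (-0.66), Trp53 without the same (0.08 and 0.03), and Cdx2 without pair 1 (-0.42); the cause was not tested. With 1 pair left out, Epcam ranged from -1.40 to 5.75, Trp53 from -0.18 to 0.08 and Cdx2 from -0.42 to 7.51. Called against the highest negative control spot, HOX genes detected numbered 22, 22 and 21 in non-SMC 1 to 3 and 18, 19 and 20 in SMC 1 to 3. Over all features, calls ranged from 0 to 1561 higher and from 0 to 1147 lower. They numbered 31 and 602 with the pair in the model and 277 and 975 without the replicate block. Both counts were 0 without pair 3, so not passing in that fit does not tell 1 gene from another. Signals near the lowest detected one limit what can be said of the 16 genes detected in no line, which may be present at levels not detectable here.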
